A study of Mus musculus with 30 samples.

Results

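The comparison described here set AML12 cells in which FoxK2 had been knocked down (FoxK2 KD) against Control cells, both after insulin stimulation. Its members were the 4 FoxK2 KD and the 3 Control samples whose labels give a treatment with insulin and a time of 6 h, which are 7 of the 30 samples of the series. All genes with enough reads were tested. AML12 is an established mouse hepatocyte line. Knockdown was by siRNA according to the study's methods, and Control cells received a non-silencing siRNA, so both groups were transfected. All cells were starved of serum overnight in medium with albumin, and these 2 groups were then given 100 nM insulin. The 8 samples used for comparison below, 4 Control and 4 FoxK2 KD, are labelled as untreated with a time of 0 h (basal). The treatment protocol instead describes a mock treatment beside that with insulin, so whether basal cells were collected before or after a mock incubation is not settled. FoxK1 KD cells and cells with both knockdowns (DKD), each with insulin, were used where a level needed a reference. The question addressed was which transcripts depended on FoxK2 in insulin-stimulated hepatocytes.

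FoxK1 and FoxK2 are closely related forkhead transcription factors, expressed in most tissues, that bind DNA through a winged-helix domain. They are known as repressors of autophagy and starvation genes that work with the SIN3 corepressor, and FoxK2 is also a partner of the deubiquitinase BAP1. Insulin acts on both FoxK and FoxO factors through the AKT and mTOR kinases. In hepatocytes it lowers genes of fasting and raises genes of lipid synthesis and growth.

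The 7 libraries held 3140647 to 4440948 counts on genes, and 11368 genes passed the filter on low counts. Each gene's level is given as CPM, counts per 1000000 on a normalised library size. The Control samples lay farther from each other than the FoxK2 KD samples, with root-mean-square log2 distances of 0.390 to 0.422 against 0.323 to 0.337. Control replicates 1 and 2 lay at opposite ends of the first principal component of these 7 samples, which held 26.0% of the variance. Of 12 hepatocyte markers expected in this line, 10 passed the filter. Hnf4a had 132 to 148 CPM and Alb, the gene of albumin, only 5.09 to 17.2 CPM over the 7 samples, both on unnormalised library sizes. Of 12 leukocyte markers, Adgre1, Itgam, Cd3e, Clec4f, Nkg7 and Ms4a1 had 0 counts in all 7 samples. The summed level of that list was 100.2 to 132 CPM in Control and 114 to 139 CPM in FoxK2 KD, most of it from Cd14. Apoa1, an apolipoprotein of mature hepatocytes, reached at most 0.83 CPM. Of 10 endothelial markers 0 and of 14 stellate and fibroblast markers 1 passed the filter. The labels do not say whether replicates came from separate cultures, so p-values measure only the spread between these samples.

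Foxk2 was the first check of the labels. Foxk2 (ENSMUSG00000039275.9, GRCm38 chromosome 11, bases 121259990 to 121309896) had 157, 163 and 168 CPM in the 3 Control samples and 63.5, 68.5, 68.9 and 62.0 CPM in the 4 FoxK2 KD samples after insulin. The groups lay far apart and the mean fell to 40.4% of Control. The log2 fold change was -1.31 ± 0.09 (SE), with an adjusted p of 7.82e-12 from the quasi-likelihood test of edgeR after Benjamini-Hochberg correction, which gave all adjusted p-values below. Basal cells had 140.2 ± 8.25 (SD, n = 4) CPM in Control and 47.3 ± 3.46 (SD, n = 4) in FoxK2 KD, or 33.7% of Control. In bulk RNA, fewer cells with the transcript and less transcript per cell cannot be told apart. Foxk1, the paralog, had 52.2, 57.8 and 49.0 CPM in Control and 52.5, 50.3, 48.8 and 58.0 CPM in FoxK2 KD after insulin, and the groups overlapped. Its log2 fold change was -0.02 ± 0.13 (adjusted p = 0.998), and the sign changed when single samples were left out.

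Beyond Foxk2, 26 genes passed the test. The study used an FDR below 0.25 for knockdown against Control at basal. Its counts for insulin-stimulated cells also required a fold change above 1.5, which was not required here. At an FDR below 0.25 alone, 19 genes rose (0.167% of the 11368 tested) and 8 fell (0.0704%), 27 in all (0.238%). With the fold minimum these were 14 and 4. An FDR below 0.25 limits the expected share of false calls to 25%, and the share among these 27 is not known. Only Foxk2, Lamb3 and Pdcd4 passed an FDR below 0.05 (0.0264% of genes). At an unadjusted p below 0.05, 409 genes were higher (3.6%) and 276 lower (2.43%). All 27 called genes were protein-coding. In 25 of them the Control and FoxK2 KD samples did not overlap, against 7.27% of all tested genes, though both counts rest on the same samples. The 27 had between 110 and 14681 counts summed over the 7 samples. Their median absolute log2 fold change was 0.64, against 0.10 over all tested genes, and 18 changed by more than 1.5-fold. Selection by the test itself favours such large changes. All 27 kept their direction and an unadjusted p below 0.05 in each of the 14 other settings in which they could be tested. Those settings reuse all or most of the samples that selected the genes, so the selection favoured this outcome too. Foxk2 and Lamb3 also stayed called in all 14 settings. Without Control replicate 2, Control replicate 3 or FoxK2 KD replicate 1, only 3 of the 27 stayed called each time, Foxk2 and Lamb3 together with Deptor, C3 and Pdcd4 respectively. With only these 2 groups in the fit, 8 stayed called, Foxk2, Lamb3, Pdcd4, C3, Lcn2, Saa3, Celf2 and Tmem175.

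**Figure D1:**
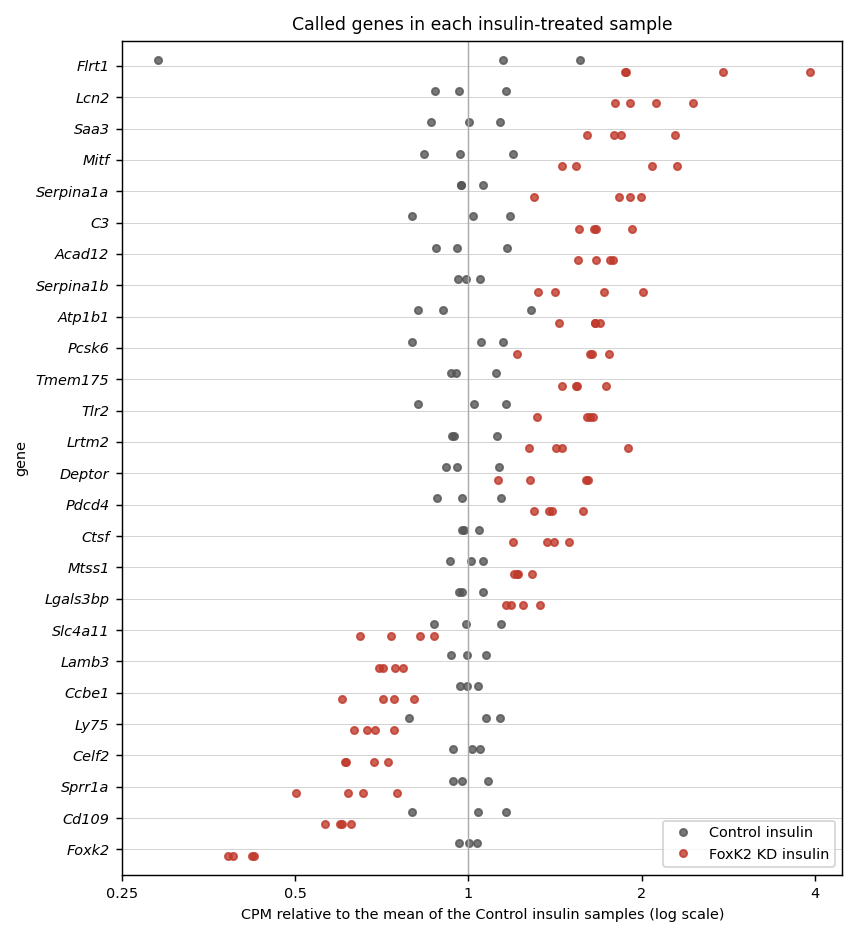
Levels of 26 of the 27 called genes in each insulin-treated sample, as CPM relative to the mean of the 3 Control insulin samples, on a log scale. Grey points are the 3 Control and red points the 4 FoxK2 KD samples, and only in Deptor and Slc4a11 do they overlap. Flrt1, at the top, has the widest spread in both groups.

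The promoters of the called genes were read from RefSeq (GRCm38.p6), as windows from 250 bases before to 50 after each start site. A window was present for 20 of the 27 genes and for 8740 of all tested genes. They were searched on both strands for the forkhead core TAAACA, which reads TGTTTA on the other strand. Pdcd4, Lamb3, Mitf and Serpina1a held it, 4 of 20 genes (20%), against 10.2% of all tested genes with a window. They are shown because they carry the core and include both genes other than Foxk2 with an adjusted p below 0.05. Capitals mark the core and each sequence runs 5′ to 3′. For Lamb3 and Serpina1a the 250 bases before the start site are given, and for Pdcd4 and Mitf, where the core lies after a start site, 29 and 30 bases around it.
Pdcd4, chr19:53892252-53892280, plus strand: ggctggagaagcTGTTTAtgaacgctgcc
Lamb3, chr1:193301993-193302242, plus strand: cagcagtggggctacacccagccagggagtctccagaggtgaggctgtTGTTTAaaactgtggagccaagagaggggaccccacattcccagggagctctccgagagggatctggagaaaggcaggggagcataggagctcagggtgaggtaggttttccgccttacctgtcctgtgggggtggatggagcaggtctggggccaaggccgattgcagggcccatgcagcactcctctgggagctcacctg
Mitf, chr6:97991791-97991820, plus strand: ctcgggatgcctTGTTTAtggtgccttctt
Serpina1a, chr12:103863620-103863869, minus strand: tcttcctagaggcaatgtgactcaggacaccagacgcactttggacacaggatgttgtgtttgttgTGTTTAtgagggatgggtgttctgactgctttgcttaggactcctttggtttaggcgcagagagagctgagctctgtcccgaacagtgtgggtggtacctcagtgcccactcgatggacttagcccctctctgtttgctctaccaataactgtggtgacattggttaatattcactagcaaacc
The core began 202 bases before the second listed start site of Lamb3 and 184 bases before that of Serpina1a, and 33 and 20 bases after one start site of Pdcd4 and of Mitf. Each of these matches is TGTTTA on the strand of the gene. Genes with several start sites had several windows, 2 for Pdcd4, 2 for Lamb3 and 3 for Mitf. The longer FoxK consensus, spelled AGTAAACA, AGTAAATA, AATAAACA, AATAAATA, TGTAAACA, TGTAAATA, TATAAACA or TATAAATA, of which 4 contain the core, was in 6.86% of the tested genes with a window. Among the 20 called genes only Celf2 held one, AATAAATA, in 1 of its 5 windows. A match is a description of these letters and was not tested as a binding site.

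C3, Lcn2, Saa3, Serpina1a, Serpina1b, Tlr2 and Lgals3bp, known for roles in the acute-phase response or innate immunity, rose in FoxK2 KD cells, a grouping made after their values were seen. C3, the central complement component, had 333, 426 and 494 CPM in Control and 803, 689, 649.5 and 696 CPM in FoxK2 KD. Every FoxK2 KD sample lay above the highest Control sample, with means of 417 ± 80.6 (SD, n = 3) and 709.6 ± 65.7 (SD, n = 4) and a log2 fold change of 0.77 ± 0.17 (adjusted p = 0.0852). Lcn2, the siderophore-binding lipocalin that liver cells secrete in inflammation, had 21.4, 28.4 and 23.6 CPM in Control and 60.2, 44.0, 51.9 and 46.6 CPM in FoxK2 KD. It was about as far apart between groups, at 207% of Control and a log2 fold change of 1.06 ± 0.24 (adjusted p = 0.088). Saa3, an acute-phase serum amyloid A protein, went from 10.8, 14.2 and 12.6 CPM to 28.7, 23.1, 22.4 and 20.2 CPM, again with no overlap (log2 fold change 0.93 ± 0.21, adjusted p = 0.088). Without FoxK2 KD replicate 1, which had the highest C3, Lcn2 and Saa3 levels of its group, the log2 fold changes were 0.69, 0.95 and 0.81 and none was called. C3 was also not called without Control replicate 1 or 2, nor Lcn2 and Saa3 without any 1 Control replicate.

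Serpina1a and Serpina1b encode alpha-1-antitrypsin, a plasma protease inhibitor. Serpina1a had 9.49, 9.48 and 10.4 CPM in Control and 17.9, 18.7, 12.7 and 19.5 CPM in FoxK2 KD (log2 fold change 0.82 ± 0.17, adjusted p = 0.0852). Serpina1b had 19.0, 17.4 and 17.9 CPM and 25.6, 23.9, 36.4 and 31.2 CPM (log2 fold change 0.68 ± 0.17, adjusted p = 0.223). These are near-identical copies whose reads the counting may split, so which of them rose is uncertain. Tlr2, a receptor for bacterial lipoproteins, had 16.6, 13.3 and 18.9 CPM in Control and 21.4, 26.1, 26.4 and 26.8 CPM in FoxK2 KD, where 1 sample stood below the other three but above all Control samples (log2 fold change 0.62 ± 0.16, adjusted p = 0.192). Lgals3bp, a secreted galectin-binding glycoprotein, went from 252, 229 and 232 CPM to 316, 276, 296 and 282 CPM, a smaller change with little spread (log2 fold change 0.30 ± 0.08, adjusted p = 0.223). Tlr2 was not called once any 1 of the 7 samples was left out, and Serpina1b in only 1 and Lgals3bp in only 2 of those 7 settings. Of the 12 leukocyte markers, 7 were at 0 counts in all 7 samples, while Cd14 had 96.1 to 134 CPM, Csf1r 1.87 to 4.95 CPM and Ptprc 0.624 to 1.59 CPM. The log2 fold changes of the 2 that could be tested were 0.06 ± 0.12 for Cd14 and 0.27 ± 0.31 for Csf1r, with adjusted p-values of 0.989 and 0.975, and their part in these results was not tested.

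Another set of genes that rose has known ties to translation control, the mTOR kinase or the lysosome, a grouping made after their values were seen. Pdcd4, an inhibitor of the translation initiation helicase (ENSMUSG00000024975.12, chromosome 19, bases 53892231 to 53929860), had 125, 96.7 and 107 CPM in Control and 153, 173, 143 and 151 CPM in FoxK2 KD. Its level went from 109.5 ± 14.3 (SD, n = 3) to 155 ± 12.9 (SD, n = 4), the rise with the smallest adjusted p (log2 fold change 0.50 ± 0.09, adjusted p = 0.0242). Left without Control replicate 2, the sample with the lowest Pdcd4, the log2 fold change was 0.40 and the adjusted p 0.282. Deptor, a protein that binds and inhibits mTOR, had 34.3, 42.4 and 35.8 CPM in Control and 60.0, 60.5, 42.2 and 47.9 CPM in FoxK2 KD. FoxK2 KD replicate 3 fell within the Control range, and the log2 fold change was 0.50 ± 0.11 (adjusted p = 0.088). Mitf, a basic helix-loop-helix factor whose family drives lysosomal genes, had 8.97, 7.27 and 6.29 CPM and 15.7, 11.6, 10.9 and 17.3 CPM, low levels with a wide spread in FoxK2 KD (log2 fold change 0.87 ± 0.19, adjusted p = 0.0852). Tfeb and Tfe3, of the same family, had log2 fold changes of -0.08 ± 0.23 (adjusted p = 0.996) and -0.07 ± 0.11 (adjusted p = 0.985). Ctsf, a lysosomal cysteine protease, had 39.8, 42.7 and 40.2 CPM in Control and 57.5, 56.1, 48.8 and 61.1 CPM in FoxK2 KD (log2 fold change 0.45 ± 0.10, adjusted p = 0.0852). Tmem175, an ion channel of the lysosomal membrane, went from 23.7, 20.2 and 19.8 CPM to 30.9, 32.7, 32.8 and 36.9 CPM (log2 fold change 0.64 ± 0.15, adjusted p = 0.138). Mitf, Ctsf and Tmem175 had no overlap between groups.

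Another 6 genes that rose encode enzymes and membrane proteins. Atp1b1, the beta subunit of the sodium pump, had 19.8, 13.9 and 12.6 CPM in Control and 25.6, 25.6, 22.1 and 26.1 CPM in FoxK2 KD (log2 fold change 0.67 ± 0.15, adjusted p = 0.088). Acad12, of the acyl-CoA dehydrogenase family, had 9.23, 6.95 and 7.55 CPM and 14.1, 13.2, 14.0 and 12.3 CPM (log2 fold change 0.75 ± 0.18, adjusted p = 0.134). In both genes the lowest FoxK2 KD sample lay above the highest Control sample. Pcsk6, a proprotein convertase, went from 15.0 ± 2.73 (SD, n = 3) to 23.5 ± 3.56 (SD, n = 4) CPM, and Mtss1, a membrane-bending actin scaffold, from 89.6 ± 6.10 (SD, n = 3) to 110.2 ± 3.59 (SD, n = 4) CPM. Lrtm2, a leucine-rich repeat membrane protein, went from 16.6 ± 1.74 (SD, n = 3) to 25.1 ± 4.44 (SD, n = 4) CPM. Adjusted p-values of Pcsk6, Mtss1 and Lrtm2 were 0.223, 0.231 and 0.223. Mtss1 was called in 0 and Pcsk6 and Lrtm2 in 1 each of the 7 settings that left out a sample. Flrt1, of the fibronectin leucine-rich transmembrane family, had the largest fold change (log2 1.37 ± 0.35, adjusted p = 0.223) but the fewest reads, 110 over the 7 samples. Its levels were 3.43, 0.632 and 2.52 CPM in Control and 8.60, 4.13, 6.07 and 4.09 CPM in FoxK2 KD. It fell to a log2 fold change of 0.95 without Control replicate 2, the sample with the lowest value.

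The 7 genes other than Foxk2 that fell were led by Lamb3, a laminin beta chain of epithelial basement membranes (ENSMUSG00000026639.18, chromosome 1, bases 193207699 to 193343878). Lamb3 had 128, 118 and 111 CPM in Control and 88.6, 91.6, 84.6 and 83.2 CPM in FoxK2 KD. The highest FoxK2 KD sample was below the lowest Control sample, and the mean was 73.1% of Control (log2 fold change -0.45 ± 0.09, adjusted p = 0.0268). Cd109, a membrane-anchored protein that binds TGF-beta, had 16.9, 24.7 and 22.0 CPM and 11.9, 12.7, 12.7 and 13.2 CPM, with the FoxK2 KD samples close together (log2 fold change -0.74 ± 0.16, adjusted p = 0.088). Ly75, an endocytic receptor, had 44.8, 64.5 and 61.0 CPM in Control, where replicate 1 was lowest, and 35.9, 39.1, 42.2 and 37.8 CPM in FoxK2 KD (log2 fold change -0.55 ± 0.12, adjusted p = 0.088). Celf2, an RNA-binding regulator of splicing, went from 48.3, 53.7 and 52.2 CPM to 31.5, 31.4, 35.2 and 37.2 CPM (log2 fold change -0.61 ± 0.14, adjusted p = 0.0881). Sprr1a, a precursor of the cornified envelope that epithelia also make under stress, went from 20.3, 23.4 and 21.1 CPM to 10.8, 16.2, 13.3 and 14.2 CPM (log2 fold change -0.67 ± 0.16, adjusted p = 0.138). None of these 5 genes had overlapping groups.

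Slc4a11, a membrane solute carrier, had 95.5, 125 and 108 CPM in Control and 80.5, 71.0, 95.6 and 90.4 CPM in FoxK2 KD, where 1 sample reached just above the lowest Control sample (log2 fold change -0.38 ± 0.09, adjusted p = 0.138). Ccbe1, a secreted calcium-binding protein of lymphatic growth, went from 55.4, 53.7 and 57.8 CPM to 39.5, 33.6, 41.3 and 44.7 CPM (log2 fold change -0.49 ± 0.13, adjusted p = 0.223). It stayed called in only 1 of the 7 settings that left out a sample.

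The same knockdown without insulin gave a separate set of 8 samples, of which 0 were among the 7 above. In these basal cells 180 genes were higher in FoxK2 KD (1.58% of tested genes) and 228 lower (2.01%) at an FDR below 0.25. These counts were 3 and 2 when only the basal groups were fitted, and 85 to 385 and 84 to 594 when 1 basal sample was left out, with the lowest following FoxK2 KD replicate 4 and Control replicate 1 and the highest Control replicate 4. All 19 genes that rose after insulin also had a positive basal fold change, and 10 of the 19 were called higher at basal. Of the 8 that fell after insulin, 7 had a negative basal fold change and 6 were called lower. In all, 20 of the 27 had an unadjusted p below 0.05 at basal, against 11.2% of all genes, and in 15 the basal groups did not overlap, against 4.67%. These counts include Foxk2, the target of the siRNA. Of the 26 other genes, 25 had the same sign at basal and 15 were called there, against 3.59% of all genes. In 14 of the 26 the basal groups did not overlap. Over all 11368 tested genes, 54.5% had the same sign in both states, with a Spearman rho of 0.127 across genes. Both states were fitted in 1 model, and genes are not independent replicates.

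For C3, Lcn2, Saa3, Serpina1a and Serpina1b the change at basal is given beside that with insulin. The log2 fold changes at basal were 0.97 ± 0.15 for C3, 1.05 ± 0.22 for Lcn2, 0.91 ± 0.19 for Saa3, 0.73 ± 0.14 for Serpina1a and 0.68 ± 0.14 for Serpina1b, with adjusted p-values of 0.000938, 0.0213, 0.0224, 0.0179 and 0.0213. Tlr2 was not called at basal, with 0.31 ± 0.13 (adjusted p = 0.322) against 0.62 ± 0.16 with insulin. Basal C3 was 365, 259, 244 and 387 CPM in Control and 688, 568, 678 and 535 CPM in FoxK2 KD, and basal Lcn2 was 32.6, 10.5, 14.9 and 24.3 CPM and 38.6, 50.1, 42.4 and 39.1 CPM. Neither gene had overlapping groups, and basal Control Lcn2 was widely spread. Lamb3 was lower at basal too (log2 fold change -0.57 ± 0.08, adjusted p = 0.000152), going from 97.0, 112, 111 and 90.9 CPM to 75.3, 68.7, 66.1 and 66.6 CPM. Sprr1a was also lower at basal, with 9.64, 8.25, 9.43 and 9.82 CPM in Control and 4.01, 4.94, 6.48 and 5.50 CPM in FoxK2 KD (log2 fold change -0.80 ± 0.19, adjusted p = 0.0406). Lgals3bp rose by 0.35 ± 0.07 (adjusted p = 0.0213), Pcsk6 by 0.63 ± 0.16 (adjusted p = 0.0781) and Ctsf by 0.31 ± 0.08 (adjusted p = 0.0663) on the log2 scale.

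**Figure D2:**
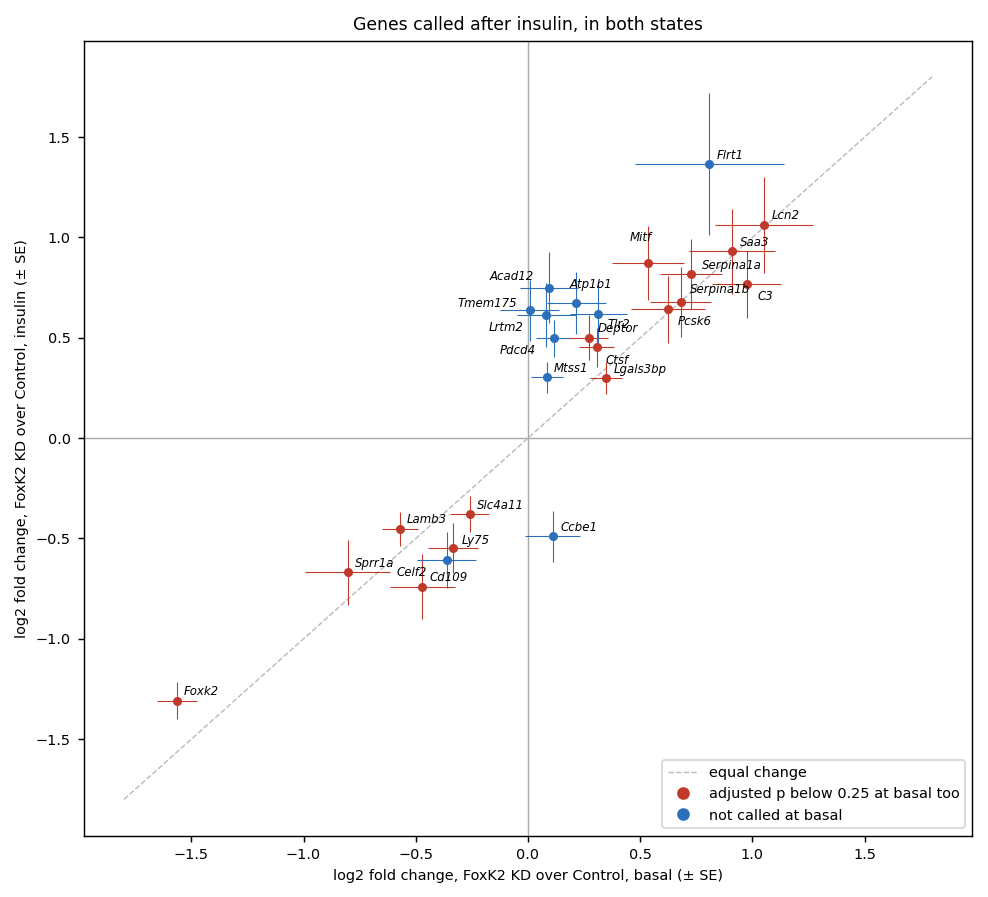
Log2 fold change of FoxK2 KD over Control for 26 of the 27 genes called after insulin, with basal cells on the x axis and insulin-stimulated cells on the y axis, and bars of 1 SE. Red points were also called at basal, blue points were not, and the dashed line marks equal change. Lcn2, Saa3, Serpina1b and Pcsk6 lie near the line, Acad12, Tmem175 and Lrtm2 lie near a basal change of 0, and Ccbe1 is the 1 gene with opposite signs.

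Whether the effect of FoxK2 KD differed between insulin and basal was tested as an interaction. No gene passed an FDR below 0.25 (0% of tested genes in edgeR, where the smallest adjusted p was 0.883), and DESeq2 and limma-voom also called 0. At an unadjusted p below 0.05 there were 625 genes (5.5%). The median standard error of this difference was 0.19, against 0.14 for the insulin comparison, so the interaction was less precise. For Lcn2 the difference between the states was 0.01 ± 0.33 and for Saa3 0.02 ± 0.29. Genes whose basal change was small had larger differences, 0.66 ± 0.22 for Acad12, 0.63 ± 0.20 for Tmem175, 0.53 ± 0.21 for Lrtm2, 0.38 ± 0.12 for Pdcd4 and -0.60 ± 0.18 for Ccbe1, with adjusted p-values of 0.883 each. These genes were chosen for their insulin change, so their differences are a description. Counting genes with 1 count in any sample instead gave 42 higher and 12 lower in the interaction.

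For several of these genes Control cells had different levels in the 2 states, which is given here as a description. Deptor was at 103 ± 7.95 (SD, n = 4) CPM in basal Control and 37.5 ± 4.28 (SD, n = 3) CPM in insulin Control. FoxK2 KD cells had 125 ± 5.36 (SD, n = 4) and 52.6 ± 9.09 (SD, n = 4) CPM in the same order. Ctsf went from 90.0 ± 4.35 (SD, n = 4) to 40.9 ± 1.54 (SD, n = 3) CPM in Control and from 111 ± 4.55 (SD, n = 4) to 55.9 ± 5.15 (SD, n = 4) CPM in FoxK2 KD. Pdcd4 had 196, 165, 198 and 158 CPM in basal Control and 189.5, 193, 203 and 188 CPM in basal FoxK2 KD, so that those groups overlapped. Acad12 had 18.7 ± 2.18 (SD, n = 4) CPM in basal Control, above the 13.4 ± 0.836 (SD, n = 4) CPM of FoxK2 KD with insulin. Of the 19 genes higher in FoxK2 KD with insulin, 12 had a lower Control mean with insulin than at basal, among them Deptor, Ctsf, Pdcd4 and Acad12, and 7 had a higher one. C3 was at 314 ± 72.5 (SD, n = 4) CPM at basal and 417 ± 80.6 (SD, n = 3) CPM with insulin, Pcsk6 at 9.75 ± 2.29 (SD, n = 4) and 15.0 ± 2.73 (SD, n = 3) CPM, and Lgals3bp at 196 ± 12.6 (SD, n = 4) and 238 ± 12.3 (SD, n = 3) CPM. All 8 genes that fell had a higher Control mean with insulin. Over all tested genes the Control mean was lower with insulin in 51.3%. Among the genes that fell, Sprr1a was at 9.29 ± 0.708 (SD, n = 4) CPM at basal and 21.6 ± 1.61 (SD, n = 3) CPM with insulin, Celf2 at 36.7 ± 5.92 (SD, n = 4) and 51.4 ± 2.82 (SD, n = 3) CPM, and Ccbe1 at 31.5 ± 7.01 (SD, n = 4) and 55.6 ± 2.07 (SD, n = 3) CPM. The insulin Control samples stand in both of these comparisons, so the 2 are not independent.

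**Figure D3:**
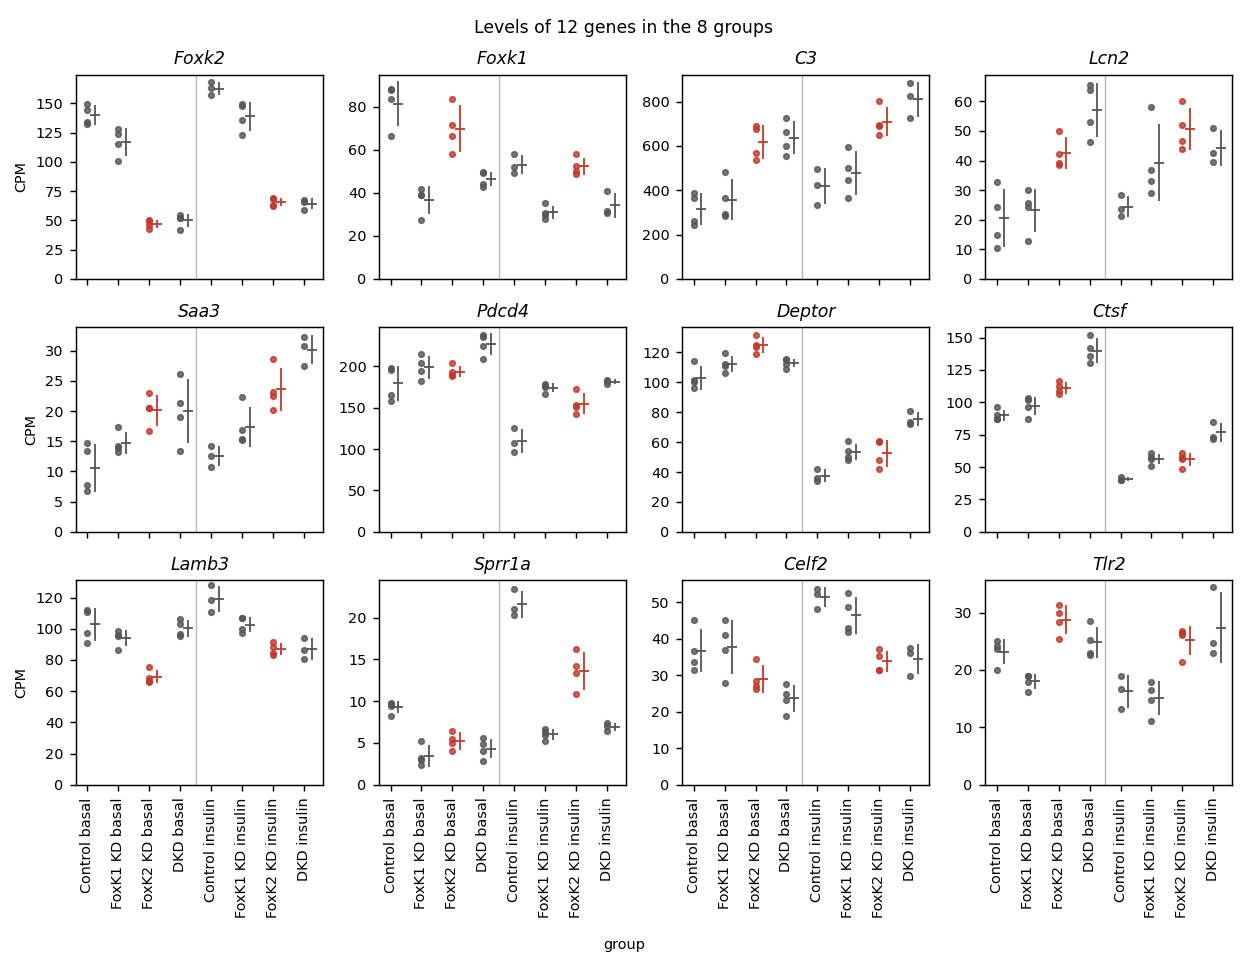
CPM of 12 genes in all 8 groups, with 1 point per sample and the mean ± SD beside the points. FoxK2 KD groups are red and a vertical line separates basal from insulin groups. Foxk2 is low in FoxK2 KD and DKD groups, C3 is high in the same groups, and Sprr1a with insulin is lower in FoxK1 KD and DKD than in FoxK2 KD.

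FoxK1 KD and DKD cells with insulin served as references for whether a level was particular to FoxK2 KD. Direct tests called 12.6% of tested genes between FoxK2 KD and FoxK1 KD and 0.422% between DKD and FoxK2 KD, in comparisons that share the FoxK2 KD samples with the main one. Of the 27 genes, 17 were called between FoxK2 KD and FoxK1 KD, 8 with FoxK2 KD above and 9 with it below. C3 was 478 ± 97.8 (SD, n = 4) CPM in FoxK1 KD, below FoxK2 KD by 0.57 ± 0.15 on the log2 scale (adjusted p = 0.0261), and 811 ± 78.5 (SD, n = 3) CPM in DKD. Tlr2 in FoxK1 KD was 15.1 ± 2.93 (SD, n = 4) CPM, and FoxK2 KD exceeded it by 0.73 ± 0.15 on the log2 scale (adjusted p = 0.00326). The same difference was 0.37 ± 0.21 for Lcn2 (adjusted p = 0.417), 0.45 ± 0.19 for Saa3 (adjusted p = 0.216) and 0.10 ± 0.07 for Lgals3bp (adjusted p = 0.541). DKD cells had 27.4 ± 6.19 CPM of Tlr2, 44.3 ± 6.01 of Lcn2, 30.1 ± 2.42 of Saa3 and 334 ± 8.87 of Lgals3bp (SD, n = 3). None of these 4 genes was called between DKD and FoxK2 KD, with adjusted p-values of 0.998, 0.998, 0.884 and 0.711 in that order. Serpina1a and Serpina1b were higher in FoxK1 KD, at 24.2 ± 2.55 and 37.5 ± 5.50 (SD, n = 4) CPM. Their log2 differences of FoxK2 KD from FoxK1 KD were -0.48 ± 0.14 (adjusted p = 0.0512) and -0.37 ± 0.15 (adjusted p = 0.186). Among genes that fell, the log2 difference of FoxK2 KD from FoxK1 KD was -0.46 ± 0.13 for Celf2 (adjusted p = 0.0465) and -0.61 ± 0.09 for Slc4a11 (adjusted p = 1.21e-05). Slc4a11 in FoxK1 KD was above Control, by 0.23 ± 0.09 (adjusted p = 0.160), which widened that difference. DKD cells showed no clear fall of Slc4a11, with a log2 fold change over Control of -0.06 ± 0.10 (adjusted p = 0.858). For Celf2 the log2 difference of DKD from FoxK2 KD was 0.02 ± 0.15 (adjusted p = 0.998).

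Most called genes departed further from Control in FoxK1 KD or DKD cells than in FoxK2 KD, by the log2 fold change. The exceptions were Lamb3, Lcn2, Ly75, Celf2, Slc4a11, Pcsk6, Ccbe1 and Mtss1. Pdcd4, Sprr1a, Atp1b1, Ctsf, Deptor and Serpina1a are given as examples of a larger departure. Pdcd4 had 174 ± 5.30 (SD, n = 4) CPM in FoxK1 KD and 181 ± 2.69 (SD, n = 3) CPM in DKD. Its log2 fold changes over Control were 0.67 ± 0.09 and 0.72 ± 0.10 in these groups. The log2 difference of FoxK2 KD from FoxK1 KD was -0.17 ± 0.08 (adjusted p = 0.316), and that of DKD from FoxK2 KD was 0.23 ± 0.09 (adjusted p = 0.711). Sprr1a had 6.65, 6.35, 5.93 and 5.20 CPM in FoxK1 KD and 7.07, 7.35 and 6.41 CPM in DKD, both below every FoxK2 KD sample. FoxK2 KD exceeded FoxK1 KD by 1.16 ± 0.20 (adjusted p = 0.000266), and DKD differed from FoxK2 KD by -0.97 ± 0.19 (adjusted p = 0.0187). Atp1b1 had 35.6 ± 3.03 (SD, n = 4) CPM in FoxK1 KD, and the log2 difference of FoxK2 KD from it was -0.52 ± 0.13 (adjusted p = 0.0178). Ctsf, Deptor and Serpina1a were higher in DKD than in FoxK2 KD. Their DKD levels were 76.8 ± 7.08 (SD, n = 3), 75.5 ± 4.69 (SD, n = 3) and 27.4 ± 1.58 (SD, n = 3) CPM, and the log2 differences were 0.46 ± 0.09, 0.52 ± 0.10 and 0.66 ± 0.15, with adjusted p-values of 0.0174, 0.0187 and 0.0492. Ctsf in FoxK1 KD was 56.3 ± 4.10 (SD, n = 4) CPM, and its difference from FoxK2 KD was -0.01 ± 0.09. For Lamb3, DKD had 86.1, 80.5 and 94.4 CPM, a log2 difference from FoxK2 KD of 0.00 ± 0.09 (adjusted p = 0.999).

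Across 36 gene lists, calls with insulin fell in 4. The list of complement, coagulation and plasma proteins had 18 of 44 members tested, of which 3 rose (Serpina1a, C3 and Serpina1b, against 0.167% of all tested genes), 0 fell and 13 had a fold change above 0. Its median log2 fold change of 0.17 was the highest of the lists with 9 or more tested members. The median over all genes was within 1e-06 of 0, and at basal this list had 6 higher calls (1.58% over all genes) and a median of 0.29. Members that did not pass included Ttr (log2 fold change 0.44 ± 0.24, adjusted p = 0.888), the thyroid hormone carrier transthyretin, and C1ra (0.48 ± 0.30, adjusted p = 0.94), a complement protease. In the list of chemokines, NF-kB feedback and adhesion genes 3 of 27 rose (C3, Lcn2 and Saa3) and 0 fell, with a median of 0.03. The chemokine Ccl20 had a log2 fold change of -0.33 ± 0.12 (adjusted p = 0.689) and the adhesion receptor Icam1 0.16 ± 0.10 (adjusted p = 0.929). Of 26 collagens, laminins and matrix genes 1 fell (Lamb3), and of 10 hepatocyte markers 1 rose (Serpina1b).

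**Figure D4:**
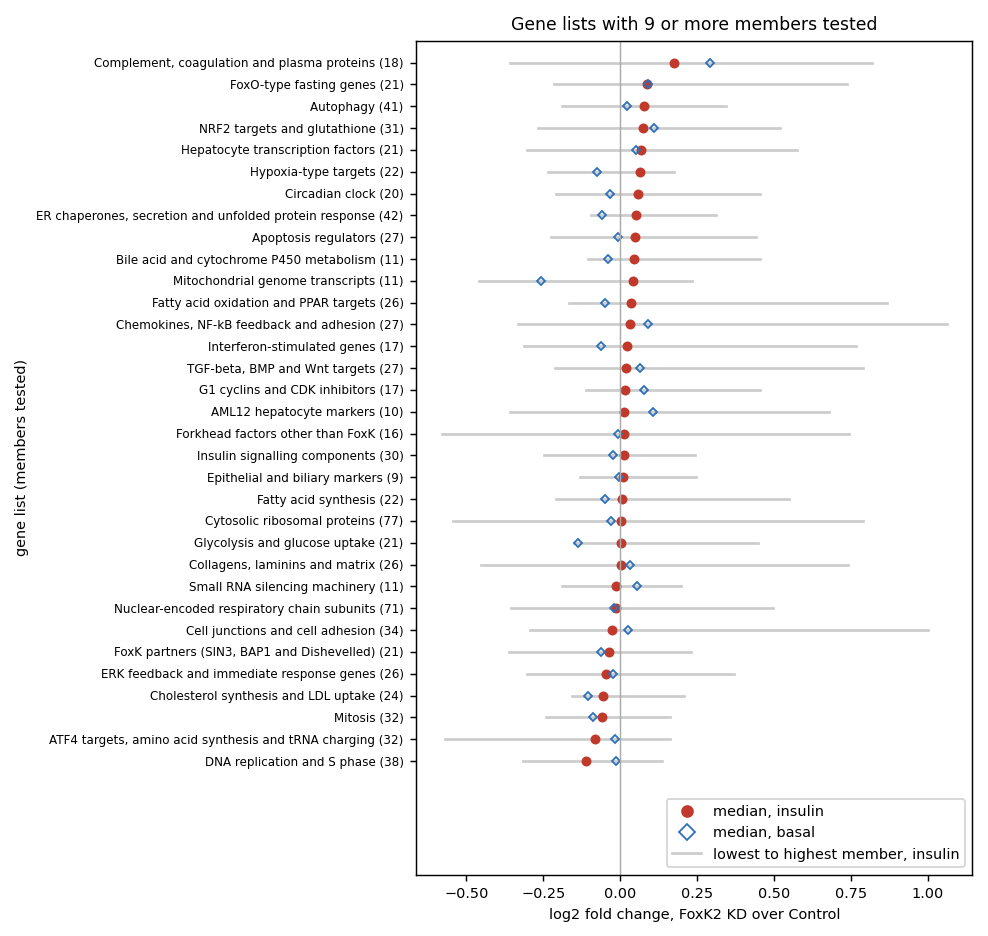
Median log2 fold change of FoxK2 KD over Control in the 33 gene lists with 9 or more tested members, with the number tested in brackets. Red circles are insulin-stimulated and blue diamonds basal medians, and grey lines run from the lowest to the highest member with insulin. Insulin medians lie between -0.11 and 0.17, with plasma proteins at the top and DNA replication at the bottom.

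No member of the lists tied to FoxK and insulin action passed the test with insulin, Foxk2 itself being in none of them. DESeq2 and limma-voom also called 0 of them. Of 41 autophagy genes 0 were called in edgeR and 4 were higher at an unadjusted p below 0.05 (3.6% over all genes, with 2.43% lower), with a median of 0.08. They were Gabarapl1, a phagophore membrane protein (0.34 ± 0.13, adjusted p = 0.676), the lipid kinase Pik3c3 (0.28 ± 0.10), Atg9a (0.29 ± 0.11) and Atg12 (0.20 ± 0.09). Of 21 FoxO-type fasting genes 0 were called and 19 had a fold change above 0, with a median of 0.09. Klhl24 had 0.29 ± 0.12 (adjusted p = 0.753) and Ppargc1a, a coactivator of gluconeogenesis, -0.22 ± 0.10 (adjusted p = 0.789). Of 30 insulin signalling components 0 were called, 1 was higher and 2 were lower at an unadjusted p below 0.05. Those lower were Pik3r1, the regulatory subunit of PI3-kinase (-0.25 ± 0.09, adjusted p = 0.645), and Igf1r (-0.25 ± 0.10, adjusted p = 0.73). Of 21 genes of the SIN3, BAP1 and Dishevelled partners of FoxK, the lowest adjusted p was that of the SIN3 subunit Sap130 (-0.36 ± 0.14, adjusted p = 0.691).

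Proliferation and metabolism lists also held 0 calls with insulin, by edgeR, DESeq2 and limma-voom alike. Of 38 DNA replication genes 32 had a fold change below 0, with a median of -0.11 and 2 lower at an unadjusted p below 0.05, the helicase subunits Mcm2 (-0.22 ± 0.08, adjusted p = 0.671) and Mcm3 (-0.20 ± 0.09). At basal their median was -0.01, with 0 called higher and 3 called lower (1.58% and 2.01% over all genes). Of 32 mitosis genes 27 were below 0, with a median of -0.06. At basal the mitosis list had a median of -0.09, with 0 called higher and 4 called lower. Of 31 NRF2 targets and glutathione genes 26 were above 0 and 4 were higher at an unadjusted p below 0.05, led by the glutathione transferase Gstm1 (0.41 ± 0.13, adjusted p = 0.531). Among 27 apoptosis regulators the BH3-only genes Bcl2l11 (0.38 ± 0.12, adjusted p = 0.454) and Bmf (0.38 ± 0.12, adjusted p = 0.519) had the smallest p-values. Medians were 0.00 for 21 glycolysis genes, 0.01 for 22 fatty acid synthesis genes, -0.06 for 24 cholesterol genes and -0.01 for 71 nuclear-encoded respiratory chain genes. Fold changes across genes had a Spearman rho of 0.197 with GC content and -0.142 with transcript length, and the part of these in the list medians was not tested.

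A set of 24 genes named by the study was looked up, of which Cdkn1b and Ccng2 come from its promoter binding assay of FoxK1 and the others from its RNA-seq account of insulin-stimulated cells, which centres on DKD. The latter were chosen with samples that include these. Of the 24, 7 passed the filter and 0 were called for FoxK2 KD against Control by edgeR, DESeq2 or limma-voom, and 0 had an unadjusted p below 0.05 in edgeR. Their smallest adjusted p was 0.914, for the cystine transporter Slc7a11 (-0.27 ± 0.15). The cell cycle regulators Ccng2 and Cdkn1b had log2 fold changes of 0.15 ± 0.11 and 0.09 ± 0.11, and hexokinase gene Hk2 had 0.00 ± 0.11.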

How the data were processed

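RNA-seq counts of 30 AML12 samples were used, of which 7 enter the main comparison. The authors deposited raw counts per gene and sample, without normalization. The submitters' processing notes name CASAVA 1.8, STAR 2.4.2a, featureCounts and GRCm38.p4, and the strand setting is not given in the sources used here, so overlapping genes may share reads. Of 49089 identifiers, 48435 were found in GENCODE M21 (GRCm38), which gave symbols and positions. Genes were filtered with filterByExpr and normalised by TMM. One model of 8 groups was fitted in edgeR 4.0.16 (glmQLFit, glmQLFTest) on all 30 samples, so groups share 1 estimate of spread. Adjusted p-values are Benjamini-Hochberg values over 11368 genes, and the threshold was an FDR below 0.25. The SE of a log2 fold change was derived from its size and the F statistic. CPM used TMM library sizes. DESeq2 1.42.0 and limma 3.58.1 (voom), other filters, other designs and leaving out each sample were alternatives.

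The genes named were Foxk1 and Foxk2, up to 12 per direction with non-overlapping samples (largest fold change at an FDR below 0.05 with a mean log2-CPM of at least 1, then smallest p at 0.25), up to 4 called members per list, 5 per direction called in both states, up to 4 per direction called in the interaction, of which there were 0, and the study's genes. Deptor, Lgals3bp, Flrt1, Pcsk6, Lrtm2 and Mtss1 lie outside this rule and were named after their values were seen, as were list members that were not called. The values of 1 called gene are not reported here. The comparison and the lists were chosen with earlier results of these data known. Depth was 3140647 to 4440948 counts per sample, and precision is limited by the 3 Control samples.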

Additional observations from a re-analysis of the deposited data

Results flagged for a closer look

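In groups of 4 samples, the 28 named genes were searched for a sample far from the other three by Dixon's ratio at its 95% critical value, in FoxK2 KD with insulin and in both basal groups. Chance flags about 1 in 20 groups, and 5 of 84 were found. Tlr2 in FoxK2 KD insulin replicate 1 was 21.4 CPM, against 26.1 to 26.8 CPM in the other three. Atp1b1 in FoxK2 KD insulin replicate 3 was 22.1 CPM, against 25.6 to 26.1 CPM. Both samples stayed above every Control insulin sample. At basal, Mitf was 12.9 CPM in FoxK2 KD replicate 2, against 11.6 to 11.7 CPM, and 6.75 CPM in Control replicate 2, against 8.57 to 8.93 CPM. Cd109 was 18.0 CPM in Control basal replicate 4, against 20.1 to 20.4 CPM.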

How the results depend on the processing

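The 19 higher and 8 lower calls with insulin became 6 and 3 when only the 2 groups compared were fitted, 1 and 2 at an FDR below 0.05, 14 and 4 with a fold change above 1.5, 23 and 16 with 1 count in any sample, and 27 and 13 with GC and length trends removed (chosen after seeing the data). DESeq2 gave 23 and 11 and limma-voom 17 and 9. With the replicate block they were 10 and 5, and 15 of the 27 genes stayed called. The labels do not state that replicate numbers pair cultures, so the numbers were not treated as pairs. Same-numbered Control and FoxK2 KD samples did not deviate together (correlations -0.187, -0.073 and -0.067). Leaving out 1 sample gave 1 to 16 higher and 2 to 15 lower calls. Over the 26 called genes other than Foxk2, 148 gene-by-setting values missed the FDR threshold and 215 passed it, with 0 reversed.

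Foxk1 ranged from -0.076 to 0.035 on the log2 scale when 1 sample was left out, with 0.035, 0.00085 and 0.013 without Control replicate 2, FoxK2 KD replicate 2 and FoxK2 KD replicate 3. The basal counts of 180 and 228 became 3 and 2 with only those groups, 24 and 19 at an FDR below 0.05, 48 and 42 with the fold minimum, 288 and 408 without the GC and length trends, 198 and 402 with 1 count in any sample, and 85 to 385 and 84 to 594 without 1 sample. The lowest followed FoxK2 KD replicate 4 and Control replicate 1 and the highest Control replicate 4. The interaction, with 0 calls, had 42 and 12 with 1 count in any sample. At an FDR below 0.05, FoxK2 KD against FoxK1 KD gave 187 and 226 calls instead of 699 and 736, and DKD against FoxK2 KD 11 and 4 instead of 27 and 21. The cause of these changes was not tested.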
